A study of Petunia x hybrida with 22 samples.

Results

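In the petunia corolla, 337 regions carried less H3K27ac and less H3K9ac at 7PM than at 7AM in both replicates of each mark, and met no H3K4me3 or H3K36me3 island that was lower at 7PM. They were chosen from lists of islands, runs of adjoining 200-bp windows that the authors had called as changed between the 2 times. An island counted as falling where its library-scaled reads at 7PM were below those of 7AM. Falling H3K27ac islands of replicate 1 and replicate 2 were joined where they shared at least 1 bp, which gave 3698 regions, and 645 of these also overlapped a falling H3K9ac island in each replicate. Of the 645, 161 were set aside because a falling H3K4me3 or H3K36me3 island overlapped them, 101 because H3K27ac was 4-fold or more lower in both replicates, and 46 for both reasons. The 337 regions that were left are 9.11% of the 3698 and 52.3% of the 645, and they cover 974.4 kb on 246 scaffolds.

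The samples were corollas, the fused petals, of Petunia x hybrida cultivar Mitchell, a white-flowered, night-scented petunia without any transgene or agent named in the labels. The plants stood in a greenhouse with 14 h of light, from 6AM to 8PM, and 10 h of dark. Chromatin of 7PM corollas, near the end of the light period, was set against chromatin of 7AM corollas, near its start. Each of the 4 marks had 2 biological replicates per time, numbered 1 and 2 for H3K27ac, H3K9ac and H3K4me3 and 1 and 3 for H3K36me3, and the 6 input samples were not used here. The labels give neither the number of flowers or plants behind a replicate nor their age, and the corolla holds several cell types, so fewer cells with a mark and less of the mark per cell cannot be told apart. Library totals were 6721831 to 14140437 reads for H3K27ac, 11507185 to 15757663 for H3K9ac and 26643442 to 51116862 for the methylation marks.

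Acetyl groups on lysines of the histone H3 tail are put on by acetyltransferases and taken off by deacetylases, and both H3K27ac and H3K9ac sit around the starts of active genes, H3K27ac also at enhancers. H3K4me3 marks the starts of transcribed genes, while H3K36me3 is laid down along gene bodies as they are transcribed. Scent production in petunia corollas follows the time of day. In plants, acetylation at genes under the clock is known to go up and down over the day. No genome or gene annotation of these scaffolds was used here, so regions are given by scaffold and position and are not assigned to genes.

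The listed changes chose the regions. Their acetylation values are therefore given as a description, without a test, and the absence of falling methylation is the rule itself. No island in the authors' lists had changed by less than 2.0-fold, so a region outside a methylation list was not listed as changed, and its methylation level is not known.

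At 7PM the median level of H3K27ac over the 337 regions was 1.13 CPM (reads scaled to the library total) per kb of falling island in replicate 1, against 3.41 at 7AM. In replicate 2 the medians were 0.944 CPM per kb at 7PM and 3.16 at 7AM. For H3K9ac they were 0.767 CPM per kb at 7PM and 2.91 at 7AM in replicate 1, and 0.793 at 7PM and 2.04 at 7AM in replicate 2. Both 7PM levels were below both 7AM levels at 336 of the 337 regions for H3K27ac and likewise at 336 for H3K9ac. This follows from the choice of regions: the same held for 99.4% of all 3698 regions of falling H3K27ac and for 98.7% of the 1355 regions of H3K9ac falling in both replicates. The exception for both marks was the same region, on Peaxi162Scf00309 at 665001 to 667400, where H3K27ac was at 6.13 and 2.36 CPM per kb at 7PM and at 13.7 and 5.89 at 7AM, and H3K9ac at 2.56 and 0.476 at 7PM and at 7.14 and 1.54 at 7AM. There replicate 1 was the higher one at either time in both marks, and within each replicate 7PM was the lower time.

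**Figure D1:**
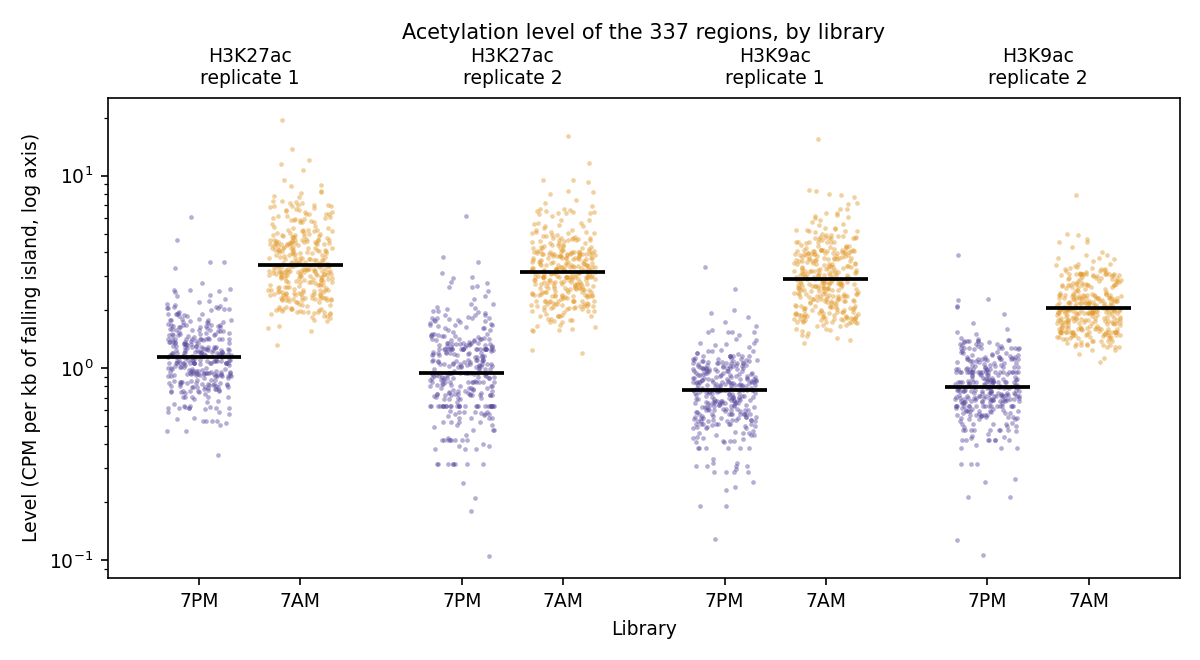
Level of H3K27ac and H3K9ac in CPM per kb of falling island (log axis) in each library, one point per region of the 337, with the median as a black bar; 2 points at 0 reads, both in the 7PM library of H3K27ac replicate 1, are not drawn. The 7PM medians lie between 0.767 and 1.13 and the 7AM medians between 2.04 and 3.41.

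The size of the change was given as log2 of 7PM over 7AM, with 1 read added to both counts and each library scaled to its total. The median over the regions was -1.55 in H3K27ac replicate 1, -1.60 in H3K27ac replicate 2, -1.92 in H3K9ac replicate 1 and -1.28 in H3K9ac replicate 2. The pairs of H3K27ac thus lay close to each other, and those of H3K9ac did not: the H3K9ac change was the larger one in replicate 1 at 280 of the 337 regions (83.1%, 95% exact binomial interval 78.6 to 86.9). This share was 91.9% of the 161 regions set aside for falling methylation and 93.1% of the 101 set aside for the 4-fold limit. H3K9ac changed more than H3K27ac at 260 of the 337 regions in replicate 1 (77.2%, 72.3 to 81.5) but at 80 in replicate 2 (23.7%, 19.3 to 28.6). In the same order, the shares were 78.3% and 27.3% of the 161 and 55.4% and 5.94% of the 101. In both replicates alike, H3K9ac changed more at 56 of the 337 regions (16.6%) and H3K27ac at 53 (15.7%). These shares were 19.3% and 13.7% of the 161 and 3.96% and 42.6% of the 101. The intervals given take regions as independent draws and do not cover the variation between replicates. As the mean of the 2 pairs, the middle 50% of regions lay between -1.88 and -1.38 for H3K27ac (median -1.65) and between -1.83 and -1.42 for H3K9ac (median -1.62). For comparison, the median H3K27ac change over all 3698 regions was -1.47. All these values are relative to the library total: centring on the regions listed in both replicates of a mark, by the median of ratios, moved the log2 folds by 1.42 for H3K27ac and 1.08 for H3K9ac and left 244 of the 337 regions below 0 for H3K27ac, with 93 at or above it, and 334 below 0 for H3K9ac, with 3 at or above it. The listed regions centred on were themselves lower at 7PM at their median, so 0 on that scale stands for the middle listed change and not for equal levels. These shifts are means of 2 replicates. In replicates 1 and 2 they were 1.38 and 1.46 for H3K27ac, and 1.46 and 0.7 for H3K9ac. The H3K9ac shift was thus the larger one in replicate 1, as was the median H3K9ac change of the 337 regions. Beside the H3K27ac shift it was larger in replicate 1 and smaller in replicate 2, the same order as in the counts of 260 and 80. The counts of 280, 260, 80, 56 and 53 hold for scaling to library totals. They were not repeated on the centred scale, where they can differ. The cause of these replicate differences was not tested.

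All 337 regions were lower at 7PM by the rule, and within this selection their fold sizes hardly went together between replicates. Across the 337 regions the log2 folds of the 2 H3K27ac replicates had a Pearson r of 0.01 (Spearman 0.11), and those of the 2 H3K9ac replicates 0.05 (0.01). Between marks within replicate 1, r was 0.46 (0.44), and within replicate 2 it was 0.22 (0.12). Points in these comparisons share the regions, their length and their depth, and the listing threshold and the 4-fold limit cut off the range. The limit takes out the regions with large H3K27ac changes in both replicates, so a low r between the H3K27ac replicates is partly built in. Over all 645 regions, without the limit and without the condition on methylation, the 2 H3K27ac replicates had an r of 0.48 and the 2 H3K9ac replicates 0.31. Levels went together more closely between replicates: for log2 CPM per kb at 7PM, r was 0.44 (Spearman 0.58) between the H3K27ac replicates, with the 2 levels of 0 set to 0.01, and 0.38 (0.36) between the H3K9ac replicates. At 7AM it was 0.74 (0.71) and 0.63 (0.59) in the same order. Among the 73 regions with at least 50 reads in each of the 4 acetylation libraries of 7AM, the fold sizes had an r of 0.18 between H3K27ac replicates, 0.32 between H3K9ac replicates, 0.51 between the marks in replicate 1 and 0.19 between the marks in replicate 2.

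**Figure D2:**
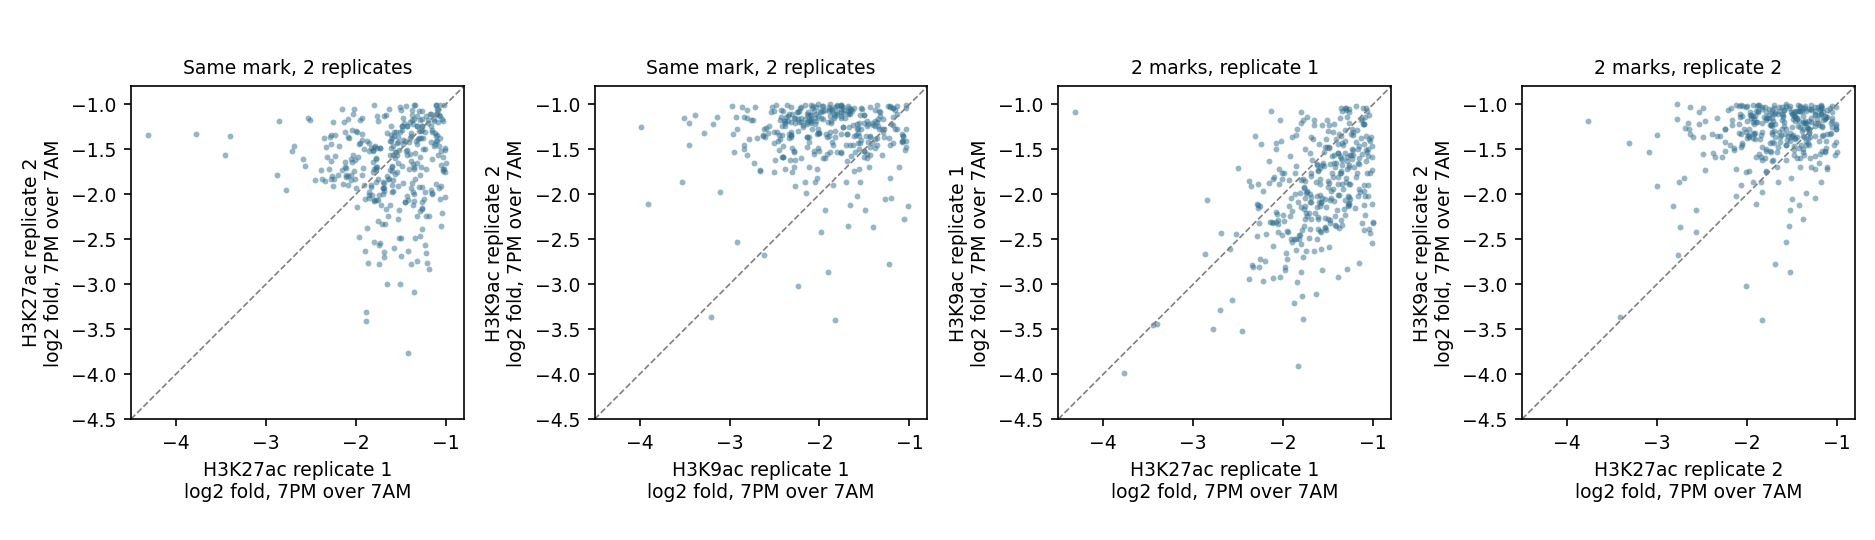
Log2 fold of 7PM over 7AM at the 337 regions, one point per region, for the 2 replicates of each mark (left pair of panels) and for the 2 marks within a replicate (right pair); the dashed line marks equal folds. Points spread along both axes between replicates (r of 0.01 for H3K27ac and 0.05 for H3K9ac), and follow each other most in the panel of both marks in replicate 1 (r of 0.46).

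Depth was low for many of the regions. The median count at 7PM was 32 reads in H3K27ac replicate 1, 14 in replicate 2, 21 in H3K9ac replicate 1 and 17 in replicate 2. At 7AM the medians were 80, 39, 70 and 37 reads in the same order. At 264 regions (78.3%) at least one of the 4 acetylation libraries of 7AM held under 50 reads, and at 2 regions H3K27ac replicate 1 had 0 reads at 7PM, where 3 reads would be 0.212 CPM. Molecular tags and duplicate removal are not described in the sources used here, so these counts may include duplicate reads.

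The 8 regions described next had the largest change in the weakest of their 4 pairs, among the 73 with at least 50 reads in each 7AM library. On Peaxi162Scf00057 at 195001 to 197200, H3K27ac stood at 3.11 and 3.52 CPM in replicates 1 and 2 at 7PM, against 17.3 and 12.9 at 7AM. H3K9ac there, over islands of 2200 bp in replicate 1 and 2000 bp in replicate 2, stood at 0.921 and 1.46 CPM at 7PM, against 11.4 and 5.46 at 7AM. In both marks the 7PM libraries lay below the 7AM ones without overlap, and the mean log2 fold was -2.15 ± 0.43 for H3K27ac and -2.69 ± 1.17 for H3K9ac (SD, n = 2 replicate pairs, here and below). On Peaxi162Scf00058 at 2380801 to 2385600, H3K27ac was at 3.82 and 3.40 CPM at 7PM and at 16.4 and 12.1 at 7AM. H3K9ac there was at 2.76 and 2.86 CPM at 7PM and at 14.0 and 9.77 at 7AM. The 7PM replicates of both marks nearly coincided and lay far under 7AM, with log2 folds of -1.94 ± 0.20 and -2.03 ± 0.39.

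On Peaxi162Scf00012 at 2179601 to 2185600, H3K27ac was at 4.46 and 1.89 CPM at 7PM, against 17.6 and 11 at 7AM. H3K9ac was at 1.53 and 1.40 CPM at 7PM, against 10.1 and 4.77 at 7AM. Here H3K27ac replicate 2 had the stronger change (-2.47, against -1.97 in replicate 1) and H3K9ac replicate 1 (-2.66, against -1.73 in replicate 2), with no overlap of times in either mark. The region on Peaxi162Scf00602 at 12201 to 19600 was the longest of the 8, with 7400 bp, and had H3K27ac at 12 and 8.68 CPM at 7PM and at 37.3 and 31.1 at 7AM. Its H3K9ac was at 5.14 and 2.35 CPM at 7PM and at 29.3 and 7.31 at 7AM. The 7AM libraries of H3K9ac lay far apart there, though both were above the 7PM ones, and the log2 folds were -1.73 ± 0.14 for H3K27ac and -2.05 ± 0.62 for H3K9ac. The other 4 were on Peaxi162Scf00732 at 465801 to 472400, Peaxi162Scf01019 at 104801 to 109000, Peaxi162Scf00541 at 667401 to 673400 and Peaxi162Scf00640 at 532601 to 537400. Over these 4 the mean log2 folds ran from -2.07 to -1.65 for H3K27ac and from -2.0 to -1.76 for H3K9ac. In all 8 regions the 7PM and 7AM levels did not overlap in either mark, and H3K9ac changed more in replicate 1 than in replicate 2. Neither sets the 8 apart. Per kb of falling island, levels did not overlap in either mark at 336 of the 337 regions, and H3K9ac changed more in replicate 1 at 280.

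**Figure D3:**
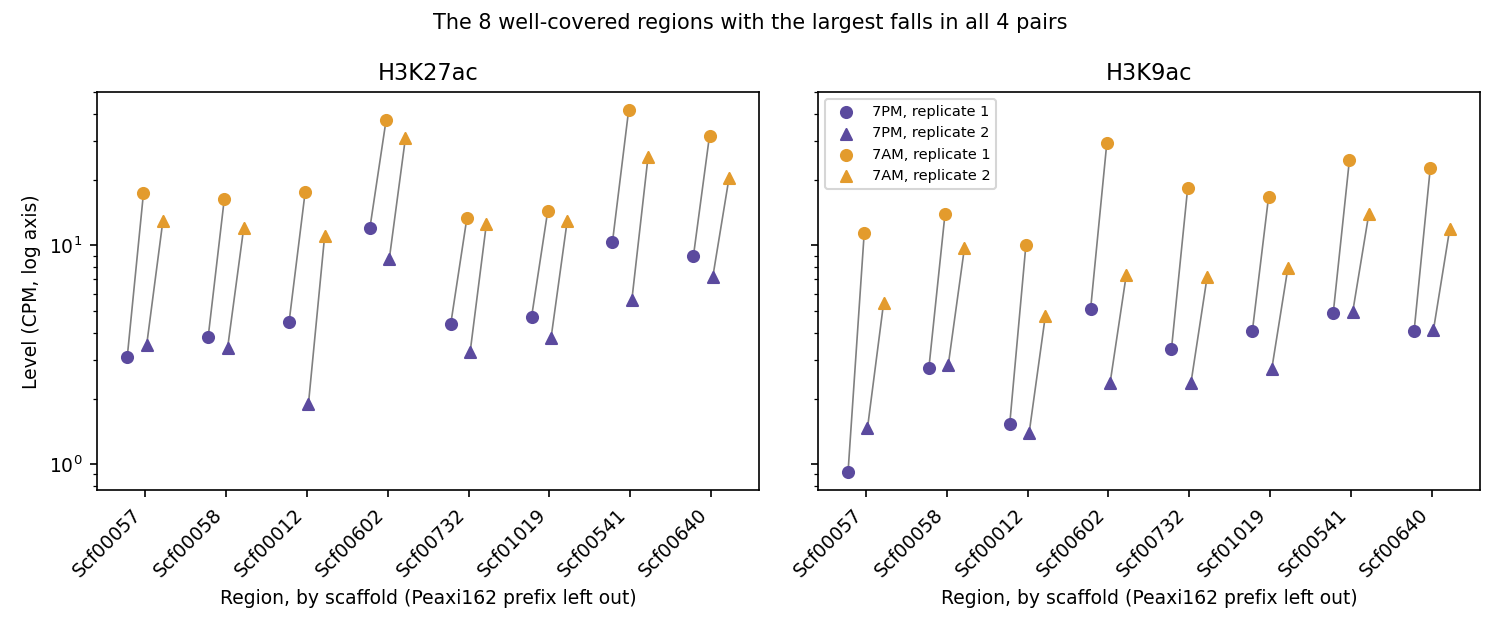
Level in CPM (log axis) of H3K27ac (left) and H3K9ac (right) at the 8 regions with the largest change in their weakest pair, at 7PM and 7AM, with a grey line joining the times of a replicate (circles for replicate 1, triangles for replicate 2). Every line goes up from 7PM to 7AM, and at 7PM no library exceeds 12.02 CPM.

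The regions were 400 to 12800 bp long, with a median of 2400 bp. At 20 of them the length was 1000 bp or less, at 39 it was 5000 bp or more, and 3 reached 10000 bp. The longest lay on Peaxi162Scf00047 at 1960401 to 1973200, where H3K27ac was at 13.4 and 10.6 CPM at 7PM and at 59.3 and 39.4 at 7AM. H3K9ac there was at 11.1 and 2.16 CPM at 7PM, against 55.5 and 5.0 at 7AM. At this region the H3K9ac islands of the 2 replicates differed widely in extent, and islands of both covered 17.2% of its length. The next in length were on Peaxi162Scf00965 at 1601 to 12200, on Peaxi162Scf00838 at 159401 to 169400 and on Peaxi162Scf00079 at 2546001 to 2555400, with mean H3K27ac log2 folds of -1.48 ± 0.30, -1.30 ± 0.23 and -1.71 ± 0.18. Per kb of falling island, H3K27ac and H3K9ac did not overlap between the times in any of the 4 longest, as at 336 of all 337 regions.

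The region with the highest H3K27ac level at 7AM was on Peaxi162Scf00439 at 912601 to 917200. Its H3K27ac was at 4.64 and 6.18 CPM per kb in replicates 1 and 2 at 7PM, against 19.6 and 16 at 7AM. H3K9ac there was at 3.34 and 3.85 CPM per kb at 7PM and at 15.6 and 7.93 at 7AM. Even at 7PM this region stood above the median 7AM level of the 337 regions in both marks, with log2 folds of -1.72 ± 0.495 and -1.63 ± 0.83 that were close to the medians. Next were another region of this scaffold, at 686601 to 693000, with log2 folds of -1.73 ± 0.047 for H3K27ac and -1.62 ± 0.72 for H3K9ac, and one on Peaxi162Scf00319 at 21801 to 30800, with -1.83 ± 0.31 and -1.72 ± 0.87. The last of the 4, on Peaxi162Scf00091 at 1478801 to 1479800, was short, with 1000 bp, and rested on 50 and 16 H3K27ac reads at 7PM against 131 and 55 at 7AM.

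Scaled to library totals, some regions changed more in one mark than in the other in both replicates. The examples here were picked by the size of that gap, which was not tested. Among those with at least 50 reads in each 7AM library, H3K27ac changed most beyond H3K9ac on Peaxi162Scf00389 at 145001 to 149000. Its H3K27ac was at 6.08 and 2.52 CPM at 7PM and at 21.3 and 15.2 at 7AM, and its H3K9ac at 7.21 and 1.65 CPM at 7PM and at 16.8 and 3.92 at 7AM. Within each replicate 7PM was the lower time in both marks, while in CPM H3K9ac replicate 2 at 7AM lay under replicate 1 at 7PM, over islands of 1200 bp against 6400 bp. The log2 folds were -2.17 ± 0.52 for H3K27ac and -1.22 ± 0.010 for H3K9ac. The next were on Peaxi162Scf00744 at 356601 to 359800 (-2.10 ± 0.39 and -1.46 ± 0.57) and on Peaxi162Scf00679 at 360601 to 364400 (-1.64 ± 0.30 and -1.20 ± 0.19). On Peaxi162Scf00744, a region of 3200 bp, replicate 1 had 7600 bp of H3K9ac island against 1800 bp of H3K27ac island. The 2 folds of that replicate thus cover different stretches. The other way round, H3K9ac changed more than H3K27ac on Peaxi162Scf00313 at 905001 to 909600, with log2 folds of -1.61 ± 0.056 for H3K9ac and -1.34 ± 0.14 for H3K27ac. It did so too on Peaxi162Scf00221 at 136201 to 138400 (-2.15 ± 0.98 for H3K9ac and -1.65 ± 0.48 for H3K27ac) and on Peaxi162Scf00263 at 1610201 to 1613000 (-1.50 ± 0.34 and -1.26 ± 0.14). On Peaxi162Scf00221 and Peaxi162Scf00263 the mean folds of the marks lay closer to each other than the SD of H3K9ac over its 2 pairs.

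Borders of falling islands differed between the 2 acetylations and also between the replicates of each. The median length of falling island per region was 2000 bp for H3K27ac in replicate 1, 1800 bp in replicate 2, 2200 bp for H3K9ac in replicate 1 and 1400 bp in replicate 2. At 324 of the 337 regions (96.1%) the H3K9ac islands of both replicates also overlapped each other. Bases under falling H3K9ac islands of both replicates made up a median of 50% of a region. That median was 53.3% in the 161 regions set aside for falling methylation and 71.4% in the 101 set aside for the 4-fold limit. For H3K27ac the like median over the 337 was 71.4%, so the 50% holds differences between replicates as well as between marks. The H3K9ac islands stayed within the region's borders at 139 regions (41.2%) and reached both borders, or beyond, in both replicates at 34 (10.1%). In 292 regions each H3K27ac replicate contributed a single island.

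The H3K9ac replicate 2 list set the number of regions. Of the 3698 regions of falling H3K27ac, 2717 overlapped a falling H3K9ac island in replicate 1 and 710 in replicate 2. Both did so at 645, or 17.4%. Asking for H3K9ac replicate 1 alone would give 1733 regions in place of 337, and replicate 2 alone 392, choices made after seeing the data. Dropping a replicate number from all marks would give 669 regions without replicate 1 and 4151 without replicate 2. Regions whose H3K9ac was listed in one replicate only numbered 2137. In replicate 2, a rising H3K9ac island overlapped 36 of the 3698 regions and none of the 337, which all have a falling one there by the rule. In replicate 1 such an island overlapped 10 of the 3698 (0.27%) and 2 of the 337 (0.593%).

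Methylation went unlisted in either direction at 335 of the 337 regions (99.4%, 95% exact binomial interval 97.9 to 99.9), where the falling lists are empty by the rule. A rising H3K4me3 island overlapped 2 regions (0.593%), and such an island of either methylation mark overlapped 0.568% of all 3698 regions. Neither was listed in both replicates. On Peaxi162Scf00589 at 685201 to 688400 the H3K4me3 island lay in replicate 2, at 688001 to 688400, with 1.59 CPM at 7PM and 0.662 at 7AM (44 and 20 reads). On Peaxi162Scf00838 at 14001 to 15200 it lay in replicate 1, at 14801 to 16200, with 1.86 CPM at 7PM and 0.816 at 7AM (95 and 28 reads). Their acetylation counts were low, with 4 to 15 reads at 7PM and 18 to 62 at 7AM over the libraries of both regions. No rising H3K36me3 island overlapped any of the 337 regions, in either replicate, while 4 of the 3698 had one in replicate 1 and 4 in replicate 3.

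Rising acetylation was met at 3 regions (0.890%), beside 1.65% of the 3698. On Peaxi162Scf00125 at 1398801 to 1405000, an H3K27ac island of replicate 2 at 1400801 to 1403200 was higher at 7PM, with 3.78 CPM against 1.34 at 7AM. It began where a falling island of the same replicate ended, and replicate 1 had a falling island over all of it. On Peaxi162Scf00121 and Peaxi162Scf00843 a rising H3K9ac island of replicate 1 reached over a border of the region, with 1.53 and 3.91 CPM at 7PM against 0.434 and 1.30 at 7AM. Each of these was in 1 replicate.

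The rule kept falling methylation off the regions. The nearest falling H3K4me3 or H3K36me3 island lay a median of 15400 bp away over the 332 regions that had one on their scaffold. At 21 regions (6.23%) it was within 1000 bp, at 94 (27.9%) within 5000 bp and at 136 (40.4%) within 10000 bp. Over all 3698 regions, which include the 25.4% that overlap falling methylation, the shares were 31.7%, 48.5% and 58.9%. For H3K4me3 alone the median distance was 21800 bp, and for H3K36me3 alone 23800 bp. The closest was on Peaxi162Scf00141 at 600601 to 602400, with a falling H3K4me3 island 200 bp away and a falling H3K36me3 island 400 bp away, a region picked out after its values were seen. Rising H3K4me3 islands lay within 10000 bp of 57 regions (16.9%) and rising H3K36me3 islands within that distance of 35 (10.4%), close to the shares for all 3698 regions (14.9% and 10.5%).

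The regions were scattered. Of the 246 scaffolds with a region, 184 had 1, 44 had 2 and 18 had 3 or more, and the median gap between neighbours on a scaffold was 144200 bp over 91 gaps. Only 17 of these gaps were under 10000 bp. Peaxi162Scf00439 had the most, 6 regions between 70201 and 917200, among them the 2 with the highest H3K27ac level given above. Mean log2 folds of the 6 ran from -2.08 to -1.50 for H3K27ac and from -1.77 to -1.37 for H3K9ac.

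The densest group was on Peaxi162Scf00017, where 4 regions lay within 11.2 kb, at 2473201 to 2474800, 2475001 to 2477400, 2480201 to 2481200 and 2481401 to 2484400. H3K27ac at these 4 was at 1.91, 2.26, 0 and 2.40 CPM at 7PM in replicate 1, against 6.60, 7.65, 0.880 and 7.57 at 7AM. In replicate 2 it was at 1.38, 1.89, 0.881 and 2.90 CPM at 7PM, against 3.27, 5.50, 2.38 and 6.10 at 7AM. The first and second shared 1 falling H3K9ac island of replicate 2, and so did the other 2, so their H3K9ac values in that replicate are not separate measurements. That replicate had 3.30 CPM at 7PM against 7.15 at 7AM in the first shared island, and 2.03 against 4.92 in the second. In each of the 4 regions H3K27ac and H3K9ac were lower at 7PM in each replicate, and the third rested on 0 and 7 H3K27ac reads at 7PM against 10 and 16 at 7AM. Falling H3K4me3 and H3K36me3 islands, in replicates 2 and 3, lay 2400 and 2200 bp from the first region. Between the second and the third region lay a further place with falling H3K27ac in both replicates and falling H3K9ac in replicate 1, but with no falling H3K9ac island in replicate 2.

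**Figure D4:**
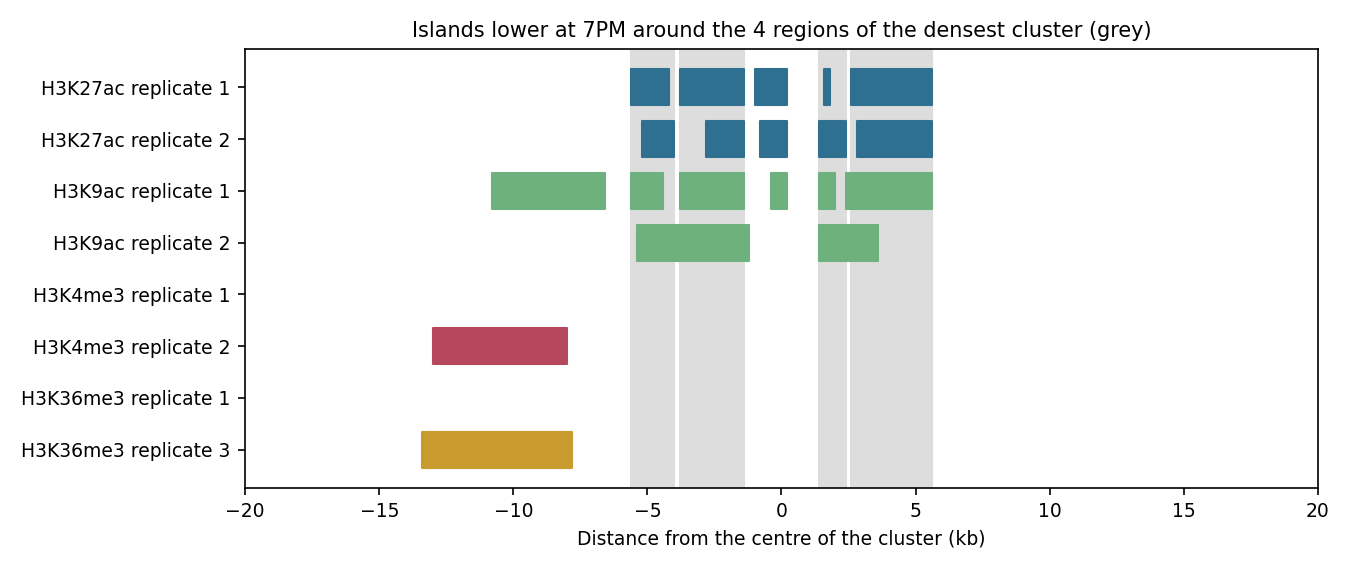
Islands lower at 7PM in each mark and replicate (rows) around the 4 regions on Peaxi162Scf00017 (grey bands), with distance from the centre of the group in kb on the horizontal axis. H3K27ac and H3K9ac islands cover much of the 11.2 kb, while the methylation islands of H3K4me3 replicate 2 and H3K36me3 replicate 3 end 2400 and 2200 bp before the first region.

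The 337 were set beside 3 other groups of regions of falling H3K27ac. In median length and 7AM level of H3K27ac they lay between the 161 and the 761 described below. No test was made of these differences, since listed changes define every group and longer regions with more reads pass the listing threshold and meet other islands more easily. The 161 regions with the same 2 falling acetylations and a falling methylation island were longer, with a median of 3800 bp against 2400 bp for the 337. A falling H3K4me3 island overlapped 132 of the 161 and a falling H3K36me3 island 92, and over all 3698 regions 25.4% met one or the other. Their median log2 folds, however, were nearly the same: -1.65 for the 337 and -1.66 for the 161 in H3K27ac, and -1.62 and -1.67 in H3K9ac. The 7AM level of H3K27ac had a median of 3.41 and 3.16 CPM per kb in replicates 1 and 2 over the 337, against 4.22 and 3.67 over the 161. At 21.7% of the 337, against 49.7% of the 161, all 4 acetylation libraries of 7AM held at least 50 reads.

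The 761 regions where H3K27ac fell with no falling H3K9ac or methylation island were shorter and weaker. Their median length was 1400 bp, their median H3K27ac log2 fold -1.41 and their median 7AM level 2.46 and 2.42 CPM per kb. Falling methylation lay within 1000 bp of 6.23% of the 337 and of 9.46% of the 761, and within 10000 bp of 40.4% and 43.2%. The 101 regions left out for H3K27ac changes of 4-fold or more had the same median length as the 337, 2400 bp, and a median H3K9ac log2 fold of -1.98. Their median 7AM level of H3K27ac, 4.62 and 4.01 CPM per kb in replicates 1 and 2, was above that of the 337.

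**Figure D5:**
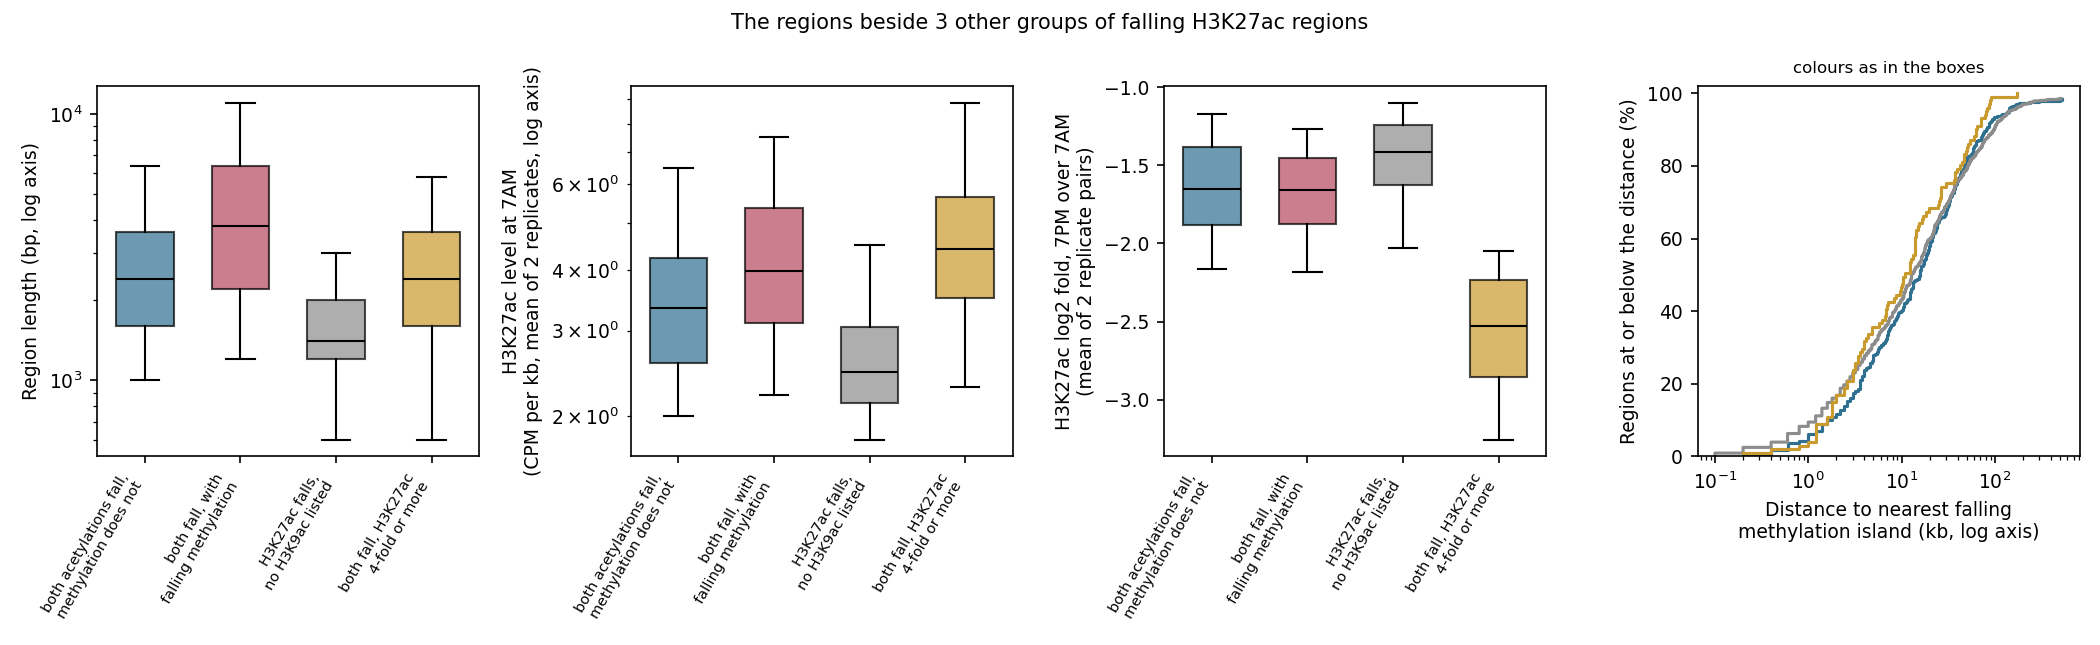
Region length in bp, H3K27ac level at 7AM in CPM per kb and H3K27ac log2 fold of 7PM over 7AM for the 337 regions and 3 other groups of regions with falling H3K27ac (boxes show the median and the middle 50%, whiskers the 5th to 95th percentile), and the share of regions with falling methylation within a distance in kb (right panel; groups in the colours of the boxes, without the 161 that overlap it, which all have a distance of 0). The 337 and the 161 have nearly the same fold (-1.65 and -1.66) and differ in length (2400 and 3800 bp).

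The 4-fold limit cut through a continuous range. Just inside it were the region on Peaxi162Scf00057 at 208401 to 210200, with a 7AM over 7PM ratio of H3K27ac CPM of 7.06 in replicate 1 and 3.996 in replicate 2, and the region on Peaxi162Scf00541 named above, with 3.99 and 4.49. Just outside were the regions on Peaxi162Scf00007 at 1724601 to 1726200, with 4.01 and 11.8, and on Peaxi162Scf00920 at 296401 to 298200, with 4.46 and 4.02. In 152 of the 337 regions (45.1%) the ratio was 4 or more in 1 of the 2 replicates.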

How the data were processed

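Values came from 16 lists, one of islands lower and one of islands higher at 7PM for each mark and replicate. The submitters' processing notes name SICER 1.1, Bowtie2 and cutadapt. Not given in the sources used here are their settings, the genome build, duplicate removal and whether input samples entered the calling. Per the labels, tissue was fixed in 1% formaldehyde and sonicated before immunoprecipitation. For each island the authors deposited the read counts of 1 library per time, the same counts as CPM, the ratio of the 2 libraries, and p-values with an FDR (at most 0.0097). The columns have no names: the first library was taken as 7PM, as the list names and values have it. Library totals are count over CPM.

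With pandas 2.3.3 and numpy 2.4.6, counts of the falling islands of a region were summed per library. Folds are log2 of 7PM over 7AM within a replicate, after adding 1 read and scaling by library totals; shares have exact (Clopper-Pearson) intervals from scipy 1.17.1. H3K9ac values are summed over all falling islands that overlap a region, also outside its borders. No test was run, since the rule used every contrast. The finding of regions was tested on simulated islands with known answers. The regions and the rules for those named were chosen with earlier results of these data known. Named regions were the 8 with the largest change in their weakest pair (at least 50 reads in each 7AM library), the 4 longest, the 4 with the highest 7AM level, any with rising methylation in both replicates (none was found), the 3 with the largest gap between marks each way, the densest 100 kb, and 2 on each side of the 4-fold limit; the regions with any rising island and the one with overlapping times were named after their values were seen. Alternatives covered overlap, FDR, reads, replicates, scaling, the added read, the methylation condition and the 4-fold limit.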

Additional observations from a re-analysis of the deposited data

How the results depend on the processing

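Every alternative takes islands listed as lower at 7PM, so the direction is fixed by the rule and only sizes and counts can move. The number of regions (337) became 156 with 50% overlap, 151 with an FDR of at most 1e-05 and 74 with at least 50 reads; without 1 replicate, or 1 H3K9ac replicate, it ran from 359 to 4151 (without replicate 2). The median H3K27ac log2 fold became -1.71, -1.78 and -1.69 under the first 3 of these, -1.78 with changes of 4-fold or more kept, -0.23 with the median of ratios and -1.69 with no read added; without 1 replicate it ran from -1.65 to -1.28. The median H3K9ac log2 fold became -0.54 with the median of ratios, and without 1 replicate it ran from -1.68 to -1.23. The median length became 2000 bp, 3000 bp and 4000 bp under the first 3, 2600 bp where falling methylation counted only in both replicates of a mark, and 1600 to 2400 bp without 1 replicate. Regions with rising methylation numbered 0, 1 and 0 under the first 3 and 2 to 8 without 1 replicate. The share under falling H3K9ac of both replicates became 74.5% with 50% overlap and 72.1% with at least 50 reads, and ran from 50% (without replicate 3) to 85.7% (without replicate 2) without 1 replicate, where leaving out replicate 1, replicate 2 or an H3K9ac replicate makes it the share under the 1 H3K9ac replicate left. The median distance to falling methylation became 30600 bp with at least 50 reads and 7500 bp where falling methylation counted only in both replicates of a mark, which lets in regions that overlap an island of 1 replicate, and ran from 12400 to 21300 bp without 1 replicate. The cause of these moves was not tested, except that each filter leaves fewer islands and each left-out replicate loosens the rule. No paired analysis was possible because the results come from no test, so there was no fit to add a replicate block to. The folds and their SDs describe the 2 replicate pairs of each mark and were not tested.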
